A study of Mus musculus with 6 samples.

Results

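Carriers of bicarbonate, protons, chloride, sulfate, citrate and phosphate were measured in the kidneys of Far2 knockout and wild-type mice. The genes were chosen by name, with earlier results of these data known. They are all entries of the deposited table in the solute carrier families Slc4, Slc8, Slc9, Slc12, Slc13, Slc20 and Slc26, leaving out Slc12a1, Slc12a3, Slc4a1 and Slc26a4. They number 47 of the 23396 genes in the table, with 10 in Slc4, 3 in Slc8, 11 in Slc9, 7 in Slc12, 5 in Slc13, 2 in Slc20 and 9 in Slc26. Of these, 44 are carriers by name. The other 3 match the name pattern only: Slc9a3r1 and Slc9a3r2 encode the scaffold proteins NHERF1 and NHERF2, and Slc4a1ap encodes kanadaptin, an adaptor protein.

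Total RNA was taken from 1 right kidney of each of 6 male mice, all 6 months old. The knockout group was 3 mice of the strain C57BL/6N-Far2tm2a(KOMP)Wtsi/2J, labelled homozygous for the Far2 knockout allele, and the controls were 3 wild-type C57BL/6N mice. No treatment is named for either group, and the labels do not say whether the mice were littermates. Libraries carry the numbers 0, 1 and 2 within a group in the deposited table, and these match no named mouse.

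In the nephron, most filtered bicarbonate is reclaimed in the proximal tubule, where Slc9a3 (NHE3) secretes protons into the lumen and Slc4a4 (NBCe1) carries sodium and bicarbonate out of the cell towards the blood. Slc13 carriers take up sulfate and Krebs cycle intermediates with sodium, Slc26 carriers exchange anions such as sulfate, oxalate, chloride and bicarbonate, and Slc20 carriers take up phosphate. Slc12 carriers move chloride together with sodium or potassium and set cell volume and cell chloride, and Slc8 carriers exchange sodium for calcium.

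The libraries held from 15261362 to 20631158 fragments, and the variance between libraries of one group was 5.69 to 22.0 times that of counting alone. The wild-type libraries held 40, 40 and 22 fragments of Far2 and the knockout libraries 28, 19 and 31. The deposited values do not show from which exons these came, so they do not check the genotype labels. The RNA held kidney markers of each nephron segment in every library. Summed CPM (fragment counts divided by library size, after scaling between libraries) ranged from 35200 to 42700 for 10 proximal tubule genes, from 4471 to 5250 for 6 genes of the thick ascending limb and from 213.7 to 253.8 for 7 intercalated cell genes. Wild-type library 0 stood apart in injury and macrophage genes: Havcr1 (KIM-1) was at 21.5 CPM there and at 0.617 to 0.916 CPM in the other 5 libraries. Of the markers of other cells, 5 of 5 fat genes had a higher fitted level in knockout (summing to 28.5 to 41.04 CPM in wild type and 39.9 to 76.8 in knockout). All 6 genes of mesangial cells, pericytes and fibroblasts had a lower one (251.9 to 342.6 and 220.0 to 249.2 CPM). So did 5 of 5 podocyte genes (243.1 to 331.8 and 226.4 to 282.8 CPM), 4 of 4 smooth muscle genes (116 to 130.6 and 97.8 to 118 CPM), 5 of 5 tested macrophage genes (103.9 to 194.9 and 82.7 to 113 CPM) and 4 of 4 tested injury genes (32.7 to 198.7 and 29.2 to 36.5 CPM). Wild-type library 0 set the top of the wild-type range for the injury, macrophage and fibroblast lists. Wild-type libraries 1 and 2 were at 32.68 and 33.61 CPM for injury genes, inside the knockout range. For macrophage genes both were at 103.9 CPM, also inside it. For the fibroblast list they were at 251.9 and 256.4 CPM, above each knockout library. Knockout library 2 set the top of the knockout range for the fat list, at 76.8 CPM. Knockout libraries 0 and 1 were at 43.84 and 39.94 CPM for fat genes, beside 41.04 in wild-type library 0. The part of these cells in the carrier values was not tested. In whole-kidney RNA, fewer cells of a type and less RNA per cell cannot be told apart.

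Levels of the carriers spanned more than 3 orders of a log10 scale, which is shown in the plot of FPKM by gene. FPKM, the authors' deposited fragment counts divided by transcript length and library size, is the scale on which levels of different genes are set side by side here. Of the 44 carriers, 3 had a mean of 100 FPKM or more, 16 had 10 or more, and 15 were under 1. The carriers together summed to 902 ± 27.8 FPKM in wild type (SD, n = 3) and 927 ± 33.7 in knockout. Slc4a4, Slc13a1 and Slc13a3 alone made up 63.4% to 66.4% of that sum in each library.

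**Figure D1:**
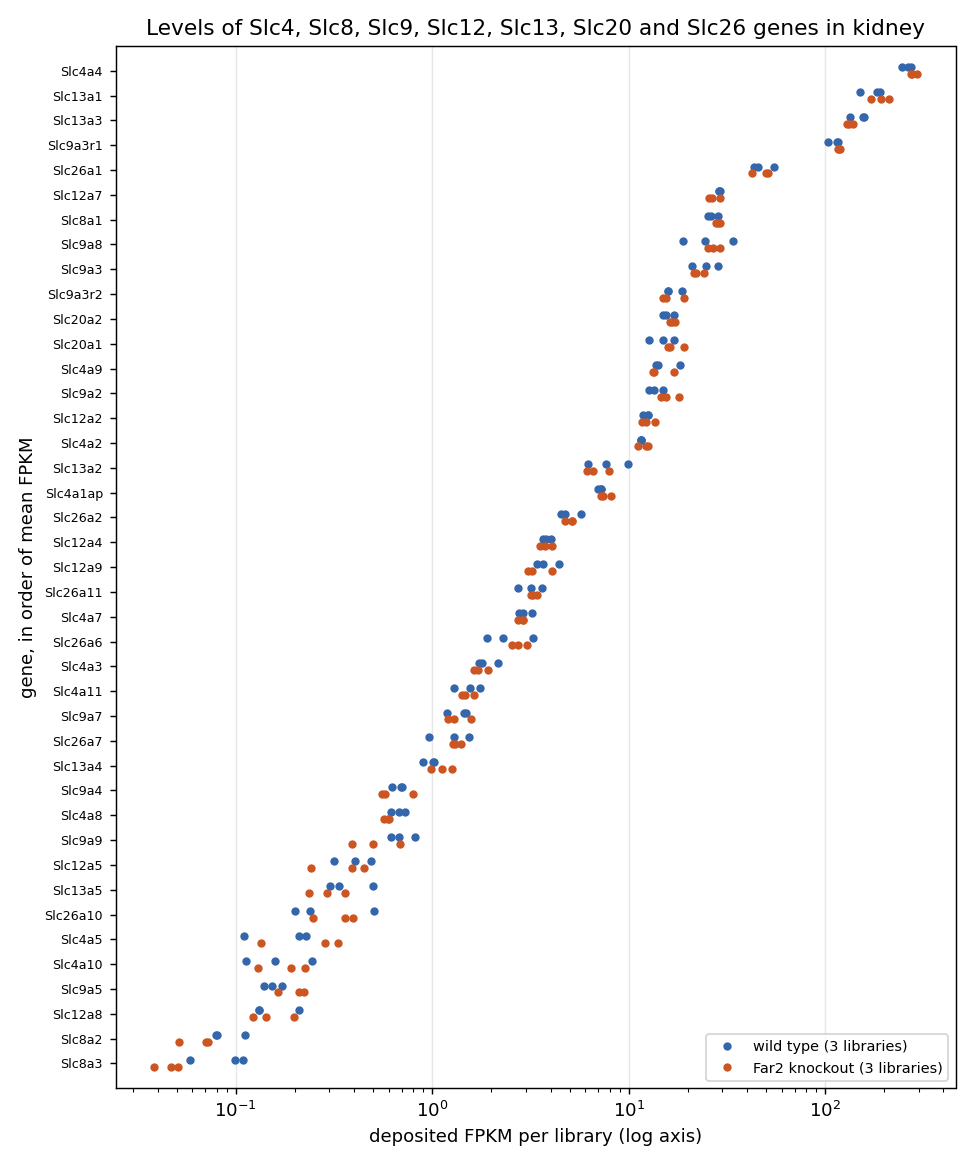
Deposited FPKM (horizontal log axis) of 41 of the 44 genes with any fragment, 1 point per library, wild type in blue and Far2 knockout in orange, in order of the mean of all 6 libraries. Slc4a4, Slc13a1 and Slc13a3 lie above 100 FPKM with the scaffold gene Slc9a3r1, and the 2 colours overlap for nearly every gene.

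Among the bicarbonate carriers of Slc4, Slc4a4 was the most abundant gene of the whole set, at 265, 274 and 246 FPKM in wild type and 295, 277 and 272 in knockout. It supplied 87.9% to 89.6% of the summed FPKM of the Slc4 carriers. On the mouse genome (GRCm38, GENCODE M21 annotation) it lies on the plus strand of chromosome 5, at chr5:88886818-89239653. Next in Slc4 came Slc4a9 (AE4), an anion exchanger known from beta-intercalated cells, at 14.96 ± 2.12 FPKM (SD, n = 6), and Slc4a2 (AE2), a widely expressed chloride-bicarbonate exchanger, at 11.8 ± 0.53 FPKM. Slc4a2 was one of the steadiest genes, between 11.2 and 12.6 FPKM in the 6 libraries. Slc4a7 (NBCn1), an electroneutral sodium-bicarbonate cotransporter, stood at 2.90 ± 0.18 FPKM, Slc4a3 (AE3) at 1.83 ± 0.19 and Slc4a11 at 1.52 ± 0.16. Slc4a8, a sodium-driven chloride-bicarbonate exchanger, Slc4a5 and Slc4a10 were all under 1 FPKM.

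Among the sodium-proton exchangers of Slc9, Slc9a8 (NHE8) and Slc9a3 (NHE3), both of the proximal tubule brush border, had similar means, at 26.4 ± 4.99 and 23.6 ± 2.79 FPKM (SD, n = 6). Their order changed between libraries. The ratio of Slc9a3 to Slc9a8 was 1.16, 1.31 and 0.619 in wild type and 0.957, 0.744 and 0.813 in knockout. Slc9a2 (NHE2), an apical exchanger of the distal nephron, followed at 14.9 ± 1.88 FPKM. The intracellular exchanger Slc9a7 stood at 1.37 ± 0.16 FPKM. Slc9a4, Slc9a9 and the mainly neuronal Slc9a5 were under 1 FPKM. The scaffold gene Slc9a3r1, whose protein anchors NHE3 and phosphate carriers at the brush border, reached 115 ± 5.56 FPKM, from 4.03 to 5.59 times the FPKM of Slc9a3 in the same library, and Slc9a3r2 reached 16.6 ± 1.78.

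Among the cation-chloride cotransporters of Slc12, the potassium-chloride carrier Slc12a7 (KCC4) had the highest mean of the genes kept, at 28.0 ± 1.58 FPKM (SD, n = 6). The sodium-potassium-chloride cotransporter Slc12a2 (NKCC1) stood at 12.4 ± 0.69 FPKM. The left-out Slc12a1 (NKCC2) of the thick ascending limb had from 22.4 to 31.9 times the FPKM of Slc12a2 in the same library. Slc12a4 (KCC1) was at 3.81 ± 0.20 FPKM and Slc12a9 at 3.65 ± 0.52. Slc12a5 (KCC2), known from neurons, was at 0.382 ± 0.090 FPKM.

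The sodium-sulfate cotransporter Slc13a1 (NaS1) and the dicarboxylate carrier Slc13a3 (NaDC3) were the second and the third most abundant carriers. Slc13a1 was at 191, 183 and 149.9 FPKM in wild type and 212, 192 and 171 in knockout. Slc13a3 was at 134, 156 and 157 FPKM in wild type and 133, 129.7 and 138 in knockout. Wild-type library 2 was the one library in which Slc13a3 exceeded Slc13a1, with a ratio of Slc13a1 to Slc13a3 of 0.955 against 1.17 to 1.59 in the other 5. Slc13a2 (NaDC1), which takes up citrate from the lumen, was far lower at 7.43 ± 1.46 FPKM (SD, n = 6), Slc13a4 at 1.05 ± 0.13 and the citrate carrier Slc13a5 at 0.337 ± 0.091.

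Among the anion exchangers of Slc26, Slc26a1 (Sat1), which exchanges sulfate for oxalate or bicarbonate at the basolateral membrane, supplied 77.1% to 81.8% of the family's summed FPKM. Its level was 47.9 ± 4.93 FPKM (SD, n = 6). The sulfate carrier Slc26a2 was at 5.01 ± 0.44 FPKM, Slc26a11 at 3.23 ± 0.29, the chloride-oxalate exchanger Slc26a6 (PAT1) at 2.63 ± 0.50 and Slc26a7 at 1.29 ± 0.19. Slc26a3, Slc26a5 (prestin, of hair cells) and Slc26a9 were listed at 0 fragments in all 6 libraries. Over the 107665935 fragments of all libraries, 0 fragments allows a level of up to 0.0279 CPM, counting error only. The phosphate carriers Slc20a2 (PiT2) and Slc20a1 (PiT1) were nearly level, at 16.3 ± 0.89 and 16.0 ± 2.11 FPKM. Slc34a1, the main phosphate carrier of the proximal tubule, had from 69.6 to 86.6 times the FPKM of Slc20a2. The sodium-calcium exchanger Slc8a1 (NCX1) stood at 27.6 ± 1.55 FPKM, while Slc8a2 and Slc8a3 had from 4 to 11 fragments per library.

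The comparison of knockout with wild type asks whether loss of Far2 goes with other levels of these carriers. Of the 47 genes, 41 had enough fragments to be tested, and Slc8a2, Slc8a3, Slc12a8, Slc26a3, Slc26a5 and Slc26a9 did not. With Benjamini-Hochberg adjustment over all 14354 genes tested and a threshold of 0.05, edgeR's quasi-likelihood test called none of the 41. The smallest adjusted p among them was 0.599. Of all genes tested, 0 passed (0.0%), and DESeq2 and limma-voom also called 0 of the 41. DESeq2 gave no adjusted p for some of them, Slc9a9 and Slc26a7 included, so it could not call these. At an unadjusted p under 0.05 stood 1 of the 41, beside 8.31% of all genes tested. Leaving out wild-type library 0, 1 or 2 made that count 5, 0 or 3, beside 11.2%, 6.16% and 7.54% of all genes then tested. Leaving out knockout library 0, 1 or 2 made it 2, 1 (Slc9a9) or 1 (Slc13a1), beside 8.75%, 3.53% and 7.08%. It was 0 on the FPKM scale, beside 7.83% with a pseudocount of 1 and 7.82% with 0.1. The authors' deposited table likewise has no gene of the set at q under 0.05, beside 0.376% of all its 23396 genes. That share counts genes the authors' comparison did not test, which include Slc4a5, Slc12a5 and Slc13a5 of the set.

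Of the 41 genes, 21 had a higher and 20 a lower fitted level in knockout, beside 48.3% of all genes tested with a higher one. Their median log2 fold change was 0.0088, beside -0.0066 over all genes tested. The size of the differences was small. The median absolute log2 fold change was 0.12 for the 41 genes and 0.10 for all genes tested. For 32 of the 41 genes the whole 95% confidence interval of the difference lay within a 1.5-fold change in either direction. That was 78.05% of them, beside 74.01% of all genes tested. For 39 of the 41 the interval lay within a 2-fold change. The exceptions to the latter were Slc4a5 and Slc13a5, both near 1 CPM. The groups did not overlap for 2 of the 41 genes, beside 14.1% of all genes tested. Slc4a4 was the 1 gene with knockout above wild type, beside 7.12% of all genes tested, and Slc4a8 the 1 gene with knockout below, beside 6.96%. With 1 library left out, comparing 3 libraries with 2, this count ran from 5 without wild-type library 1 or knockout library 1 to 14 without knockout library 0, while the share over all genes ran from 19.4% to 29.6%. It was 6 without knockout library 2, 8 without wild-type library 2 and 10 without wild-type library 0.

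**Figure D2:**
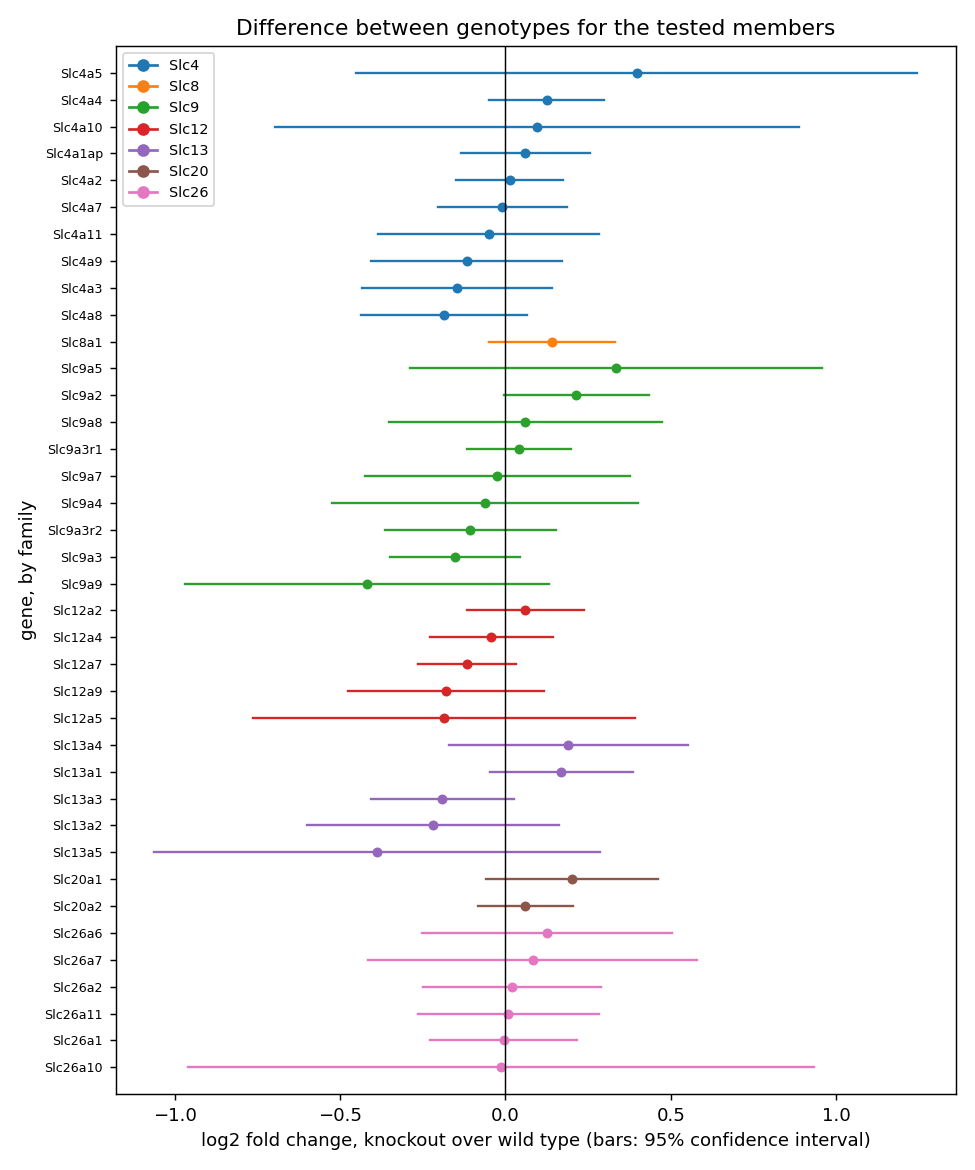
Difference of knockout from wild type as a log2 fold change (horizontal axis, positive where knockout was higher) for 38 of the 41 tested genes by family, with points for edgeR's estimate and bars for its 95% confidence interval. All intervals shown include 0, and the wide bars belong to genes near 1 CPM such as Slc4a5, Slc4a10 and Slc26a10.

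Slc4a4, the basolateral bicarbonate exit of the proximal tubule, was at 1918, 1980 and 1903 CPM in wild type and 2210, 2088 and 2026 in knockout. All knockout libraries lay above all wild-type libraries on this scale, but on the deposited FPKM knockout library 2 (272) lay below wild-type library 1 (274). The log2 fold change was 0.12 ± 0.078 (SE; edgeR's quasi-likelihood test, adjusted p = 0.647), and by the 95% confidence interval knockout lay at 0.966 to 1.23 times wild type. The 10 proximal tubule marker genes, of which 8 had a higher fitted level in knockout, summed to 35670, 35200 and 42280 CPM in wild type and 39350, 42700 and 41730 in knockout, and their part in the Slc4a4 values was not tested. Slc4a8 was lower in each knockout library, at 8.24, 9.11 and 8.11 CPM in wild type and 7.12, 7.71 and 7.60 in knockout. This gave a log2 fold change of -0.19 ± 0.11 (SE; adjusted p = 0.635 by edgeR). The remaining Slc4 genes overlapped between groups. Slc4a2 had the narrowest interval among them, 0.902 to 1.13 times the wild-type level, around a log2 fold change of 0.013. Exons of genes on the other strand, Fastk among them, overlap 13.7% of its annotated exon length. Slc4a7 stood at -0.010 ± 0.087 (SE), Slc4a11 at -0.051 ± 0.15 and Slc4a9 at -0.12 ± 0.13 on the log2 scale.

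Slc9a2, the apical sodium-proton exchanger of the distal nephron, was at 51.4, 44.7 and 49.3 CPM in wild type and 50.6, 63.8 and 54.5 in knockout, with knockout library 0 inside the wild-type range. Its log2 fold change was 0.21 ± 0.098 (SE; adjusted p = 0.599 by edgeR), and it was 0.12 without knockout library 1. Slc9a3, the main proton exit of the proximal brush border, was at 76.3, 69.6 and 61.2 CPM in wild type and 66.1, 59.8 and 60.6 in knockout. The highest value was in wild-type library 0, and its log2 fold change of -0.15 ± 0.088 (SE; adjusted p = 0.630 by edgeR) was -0.075 without that library and -0.23 without wild-type library 2. Slc9a8 ranged more between mice than between groups, at 114, 91.5 and 170.2 CPM in wild type and 119, 141 and 131 in knockout. The endosomal exchanger Slc9a9 had few fragments, from 26 to 60 per library, and a log2 fold change of -0.42 ± 0.25 (SE; adjusted p = 0.634 by edgeR). Leaving out knockout library 0 gave -0.24 and leaving out knockout library 1 gave -0.64. The scaffold Slc9a3r1 averaged 243 ± 18.1 CPM in wild type (SD, n = 3) and 250.2 ± 1.498 in knockout, an interval of 0.922 to 1.15 times the wild-type level.

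The sulfate and dicarboxylate carriers of Slc13 had fitted differences of opposite sign. Slc13a1 was at 407, 388 and 340.3 CPM in wild type and 467, 431 and 379 in knockout, a log2 fold change of 0.17 ± 0.097 (SE; adjusted p = 0.628 by edgeR). Leaving out knockout library 0 or wild-type library 2 gave 0.098, and leaving out knockout library 2 gave 0.25. Slc13a3 was at 467, 578 and 595 CPM in wild type and 466, 468 and 502 in knockout, a log2 fold change of -0.19 ± 0.097 (SE; adjusted p = 0.603 by edgeR). Wild-type library 0, the library high in injury genes, was at the knockout level for Slc13a3, and without it the log2 fold change was -0.29 (adjusted p = 0.336), while it was -0.13 without wild-type library 2. Over the alternatives the adjusted p of Slc13a3 ran from 0.336 to 0.998. Slc13a2 was at 13.9, 23.2 and 18.5 CPM in wild type and 18.0, 14.4 and 15.3 in knockout. The fitted log2 fold change of -0.22 ± 0.17 (SE) was -0.014 without wild-type library 1 and -0.39 without wild-type library 0. Its annotated exons overlap those of Slc13a2os on the other strand over 26.2% of their length. The summed FPKM of the 5 Slc13 carriers was 333 ± 17.5 in wild type (SD, n = 3) and 334 ± 18.4 in knockout.

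**Figure D3:**
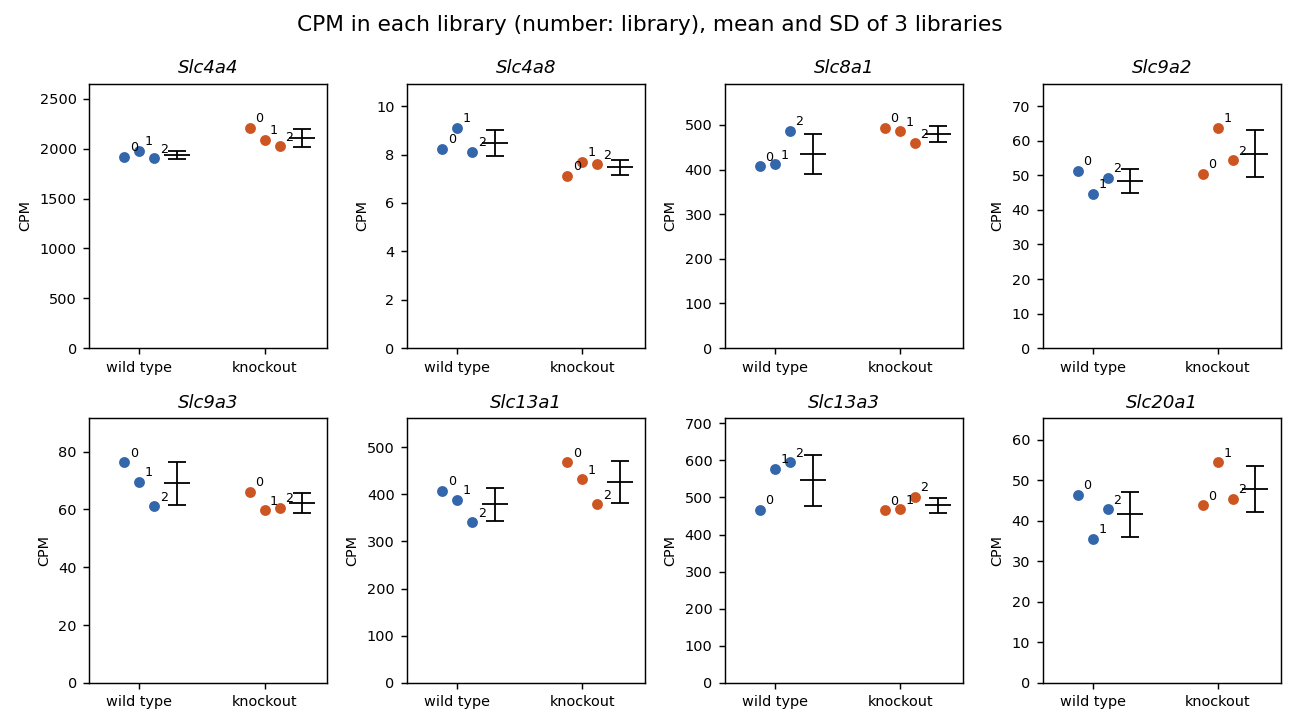
CPM (vertical axes from 0) of 8 carriers in each library, with the library number beside each point and the mean and SD of 3 libraries beside each group. Slc4a4 and Slc4a8 have groups that do not overlap, whereas wild-type library 0 lies at the knockout level for Slc13a3.

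The phosphate carrier Slc20a1 was at 46.4, 35.5 and 42.8 CPM in wild type and 43.8, 54.4 and 45.4 in knockout, a log2 fold change of 0.20 ± 0.12 (SE; adjusted p = 0.628 by edgeR). Leaving out library 1 of either group gave 0.10. Genes on the other strand overlap 13.1% of its annotated exon length. Slc20a2 varied little, from 57.6 to 63.7 CPM over all libraries, and its interval was 0.943 to 1.15 times the wild-type level. Slc8a1 averaged 436 ± 44.8 CPM in wild type (SD, n = 3) and 480 ± 18.3 in knockout, with wild-type library 2 (487) inside the knockout range. Its log2 fold change was 0.14 ± 0.085 (SE; adjusted p = 0.640 by edgeR), 0.23 without that library and 0.094 without wild-type library 0.

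In Slc12, the volume-regulating carrier Slc12a7 averaged 177 ± 6.50 CPM in wild type (SD, n = 3) and 163 ± 8.54 in knockout, a log2 fold change of -0.12 ± 0.066 (SE; adjusted p = 0.627 by edgeR). Slc12a2 averaged 67.0 ± 4.31 and 69.8 ± 5.26 CPM and Slc12a4 16.9 ± 0.47 and 16.4 ± 0.89, in wild type and knockout. Slc12a4 and Slc12a2 thus had intervals of 0.853 to 1.11 and 0.923 to 1.18 times the wild-type level.

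The Slc26 carriers named here had log2 fold changes between -0.0053 and 0.12. Slc26a1 averaged 168 ± 20.9 CPM in wild type (SD, n = 3) and 167 ± 14.8 in knockout, an interval of 0.854 to 1.16 times the wild-type level. Its annotated exons overlap those of Idua on the other strand over 3.5% of their length, and the deposited table gives the same locus to both. Slc26a2 had a log2 fold change of 0.021 ± 0.12 (SE), Slc26a11 of 0.0088 ± 0.12, Slc26a6 of 0.12 ± 0.17 and Slc26a7 of 0.083 ± 0.22. For Slc26a7, with 40 to 56 fragments per library, the interval was as wide as 0.750 to 1.495 times the wild-type level.

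Differences between mice of one genotype were larger than those between genotypes for several carriers. The median coefficient of variation between libraries was 12.5% in wild type and 8.49% in knockout for the 41 genes, beside 9.10% and 8.12% for all genes tested. Of the 39 genes with a mean of 1 CPM or more, 9 kept the highest library within 1.2 times the lowest, and 11 spanned 1.5 times or more. Wild-type library 1 held the highest value for 14 of the 41 genes and the lowest for 11, beside 21.1% and 23.0% of all genes tested. Slc13a2, Slc4a9 and Slc26a1 were highest there, and Slc9a8, Slc20a1 and Slc9a2 were lowest. Slc9a8 peaked in wild-type library 2, at 1.86 times its lowest library. Wild-type library 0, which held the injury and macrophage signal, was highest for 4 and lowest for 5 of the 41 genes, beside 17.1% and 13.4% of all genes tested. The part of that signal in the results was not tested.

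**Figure D4:**
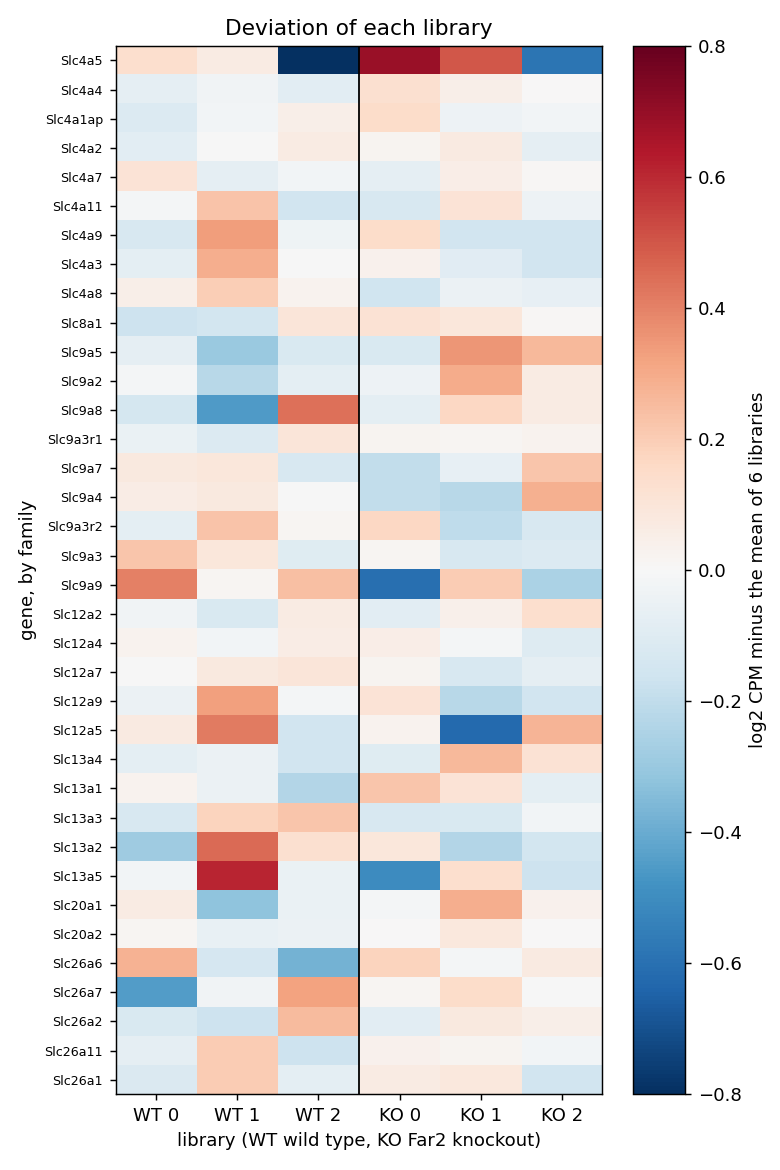
Log2 CPM of each library minus the mean of the 6 libraries (colour) for 36 of the 39 tested genes with a mean of 1 CPM or more, by family, with wild-type libraries to the left of the line and knockout libraries to the right. Wild-type library 1 holds strong colours of both signs, such as red for Slc13a2 and blue for Slc9a8, and Slc4a5 varies most.

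Other genes of acid-base and ion transport were read from lists of textbook members. Of their 92 genes, 91 were tested, 49 had a higher and 42 a lower fitted level in knockout, and 0 passed edgeR's quasi-likelihood test after adjustment (12 had an unadjusted p under 0.05, beside 8.31% of all genes tested). The groups did not overlap for 16 of the 91, beside 14.1% of all genes tested. Among the 8 carbonic anhydrases, which supply bicarbonate and protons to these carriers, Car2 was both the most abundant and the one with the smallest p, at 279.5 ± 23.4 CPM in wild type (SD, n = 3) and 330.3 ± 27.4 in knockout (log2 fold change 0.24 ± 0.087, adjusted p = 0.599 by edgeR). Of 22 subunits and accessory proteins of the proton pump, 17 had a higher fitted level in knockout, 7 of them without overlap, beside 7.12% of all genes tested. Among those without overlap, wild-type library 1 was the lowest for Atp6v0e, Atp6v1a, Atp6v1d, Atp6v1e1, Atp6v1h and Atp6ap2, and wild-type library 2 for Atp6v1g1. The subunits in the intercalated cell list overlapped between groups. Their log2 fold changes were 0.047 for Atp6v1g3, 0.055 for Atp6v0d2 and -0.038 for Atp6v1b1. Atp6ap2, an accessory protein of the pump, was at 99.9, 98.8 and 101 CPM in wild type and 118, 118 and 109 in knockout, while Atp6v0c, the most abundant subunit by FPKM, averaged 305 ± 11.0 and 282 ± 53.4.

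Of the 10 sodium and proton-potassium pump genes, 8 had a lower fitted level in knockout, with Fxyd5 at 8.76 ± 2.07 CPM in wild type (SD, n = 3) and 6.48 ± 0.46 in knockout. Fxyd2, the gamma subunit of the sodium pump and the most abundant of the list by FPKM, averaged 1075 ± 55.3 and 1140 ± 43.9 CPM. The 15 chloride channel genes divided into 7 higher and 8 lower. Ano1, a calcium-activated chloride channel, averaged 7.82 ± 1.59 and 5.72 ± 0.97 CPM in wild type and knockout. In the WNK kinase cascade, which phosphorylates Slc12 carriers, 5 of 11 genes were higher and 6 lower. Without overlap, 1 of the 11 had knockout above wild type, beside 7.12% of all genes tested, and 0 below, beside 6.96%. Wnk4 averaged 46.9 ± 8.17 CPM in wild type and 37.9 ± 3.41 in knockout, and Ppp1r1a 95.5 ± 11.2 and 91.9 ± 11.9.

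Among 11 tested partners of Slc4, Slc9 and Slc26 carriers, 4 had a higher and 7 a lower fitted level in knockout. Without overlap, 2 of the 11 had knockout above wild type, beside 7.12% of all genes tested, and 1 below, beside 6.96%. Itpr3, an inositol trisphosphate receptor, was at 11.3, 12.7 and 11.6 CPM in wild type and 8.60, 6.18 and 8.25 in knockout (log2 fold change -0.62 ± 0.13, adjusted p = 0.599 by edgeR). The scaffold Pdzk1, the most abundant of them by FPKM, averaged 1181 ± 95.1 and 1315 ± 144 CPM. Of 7 genes of phosphate handling 3 were higher and 4 lower, with Slc34a1 at 4300 ± 286 CPM in wild type and 4225 ± 195 in knockout and Slc34a3 at 48.8 ± 4.59 and 54.9 ± 4.18. Of 7 genes of ammonium handling 6 were higher, and Pck1, which makes glucose from the carbon left by glutamine, was at 1516, 2038 and 2069 CPM in wild type and 2205, 2594 and 2344 in knockout (log2 fold change 0.35 ± 0.13, adjusted p = 0.599 by edgeR). Wild-type library 0 was the lowest for Pck1. The 4 genes left out by name overlapped between groups, with log2 fold changes of 0.11 ± 0.095 (SE) for Slc12a1, -0.11 ± 0.11 for Slc12a3, -0.13 ± 0.12 for Slc4a1 and 0.055 ± 0.10 for Slc26a4.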

How the data were processed

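The tools in the submitters' processing notes are Cufflinks 2.2.1 with Cuffdiff, SAMtools 1.2, cutadapt 1.2.1, Bowtie2 2.2.3 and TopHat2 2.0.13, and the build is mm10; the notes here state no role or order. The labels' protocols name a stranded total RNA kit with ribosomal RNA removal. Whether counting used strand, the gene models and the handling of multiply aligned reads are not given here, so overlapping genes are less certain. The authors deposited estimated fragment counts per gene and library (expected counts, all whole for these genes), FPKM scaled between libraries by Cuffdiff, and, per the file headers, a comparison with a log2 fold change, p-value and q-value. The deposited group means of scaled counts were left out.

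Rounded counts passed filterByExpr, received TMM scaling and entered a test across all genes in edgeR 4.0.16 (quasi-likelihood, two-sided, no covariates) in R 4.3.3, with Benjamini-Hochberg adjustment and a threshold of 0.05. Confidence intervals are 95%. P-values measure the spread between 3 mice per group. Refits used DESeq2 1.42.0, limma-voom (limma 3.58.1), upper-quartile or RLE scaling, a minimum of 1 CPM in 3 libraries, no filter, limma on log2(FPKM + 1) and log2(FPKM + 0.1), a threshold of 0.10, and leaving out each library. On simulated counts for this comparison, 200 of 14354 genes carried known changes. At 1.5-fold 59.7% of them were found by edgeR, at 2-fold 77.6% and at 4-fold 97.0%, and 7.69% of calls were false. Counts were drawn gene by gene at edgeR's own estimate of spread, with no library set apart as wild-type library 0 was. The changed genes were drawn from all genes, so the percentages do not describe these carriers. Gene positions and exon overlaps came from GENCODE M21, where all 47 genes matched by symbol. Summaries used Python 3.11.15.

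Members and lists were chosen with earlier results of these data known. Named genes are the 3 most abundant tested members per family, the 10 with the smallest p, those without overlap at 1 CPM or more, and members with textbook kidney roles. In each pathway list they are the gene with the smallest p and the gene with the highest FPKM. Other genes were named after their values were seen. Of the members, 3 are not reported here by name and are left out of the figures, as is 1 pathway gene; the counts include them.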

Additional observations from a re-analysis of the deposited data

How the results depend on the processing

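None of the genes chosen passed under any of the 14 refits or at a threshold of 0.10, though DESeq2 gave some of them no adjusted p. Their smallest adjusted p in a refit was 0.253, without wild-type library 0. No paired analysis was possible because the library numbers match no label and pair no mice. Of all genes tested, the count called was 0 in the reported fit, 14 by DESeq2, 1 with no filter, 1 at an adjusted p under 0.10, and 0 to 1 with a library left out. The median log2 fold change of the tested genes of the set ran from -0.032 to 0.022 with a library left out, and was -0.0073 with upper-quartile scaling, which moved the median of all genes from -0.0066 to -0.022. The count of genes without overlap was 4 with no filter, where 44 of the 47 were tested (beside 12.8% of all genes), and 5 to 14 with a library left out. On FPKM it was 2 (beside 13.3%), with Slc4a1ap in place of Slc4a4. Of the 25 named genes, 14 kept their sign in every refit, and the other 11 changed it in 23 of 350 fits, none past the threshold. Of these, 2 changed sign under upper-quartile scaling, Slc26a11 at -0.0073 and Slc4a2 at -0.0030, and both also did so with a library left out. With a library left out the ranges of the 11 were -0.081 to 0.00021 for Slc12a4, -0.064 to 0.11 for Slc26a1, -0.062 to 0.13 for Slc26a11, -0.053 to 0.16 for Slc26a2, -0.0040 to 0.33 for Slc26a6, -0.093 to 0.27 for Slc26a7, -0.13 to 0.066 for Slc4a11, -0.024 to 0.053 for Slc4a2, -0.047 to 0.047 for Slc4a7, -0.22 to 0.040 for Slc4a9 and -0.12 to 0.34 for Slc9a8. The cause was not tested. Depth limits genes near 1 CPM, such as Slc4a5, Slc4a10, Slc9a5, Slc13a5 and Slc26a10.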
